A study of Saccharomyces cerevisiae with 10 samples.

Results

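The mitochondrial ribosomal protein genes of budding yeast were described across 5 mutation accumulation lines. Members were the genes of the deposited table whose symbol is MRPL, MRPS or RSM followed by a digit, or MRP followed by a digit, with MRP8 left out. This gave 66 of the 5711 genes in the table, 7 of them on chromosome XIII and 59 elsewhere. By the ribosome nomenclature in the RefSeq gene table, 38 of them encode large-subunit proteins and 27 small-subunit proteins, while RSM22 has no such name. Each member was read by a single probe row.

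The groups were the lines MA-A0, MA-A1 and MA-A3 together with MA-A4 and MA-A8, each a Saccharomyces cerevisiae population kept through repeated bottlenecks so that mutations collect with little selection. The labels give no ancestor, genotype, age of the line or growth condition, and no unmutated control is among the samples analysed here. Total RNA of a Cy5-labelled line was hybridised with that of a Cy3-labelled line, once for each of the 10 pairs, which put each line on 4 arrays, 2 of them as Cy5. Whether separate cultures were grown for those 4 is not told by the labels. No pair was hybridised again, so the errors and p-values measure how far the arrays depart from a fit of line and dye terms. Whether variation between cultures enters them cannot be told.

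The mitochondrial ribosome of yeast makes the few proteins encoded in mitochondrial DNA, most of them core subunits of the respiratory chain and the ATP synthase. Its RNAs come from the mitochondrial genome, whereas nearly all of its proteins are encoded in the nucleus by genes scattered over many chromosomes, made in the cytosol and imported. Proteins whose nomenclature name begins with u have relatives in all ribosomes, those with b have relatives in bacteria, and those with m belong to mitochondrial ribosomes alone.

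Values are log2 ratios as read from the deposited table, after each array was centred on the median of its genes. The labels state neither base nor direction of the ratio, and values were read as Cy5 over Cy3 in the order of each title; with the opposite reading every sign below would turn. The value of a line is its level minus the mean of the other 4 lines, which for a gene measured on every array equals the mean of that line's 4 array ratios. A strong shift in one line thus enters the other 4 diluted and with the opposite sign. Deposited array medians ran from -0.88 to 0.45, and 81.1% to 88.1% of probe rows held a value. A gene was called where its adjusted p in limma, with Benjamini-Hochberg adjustment over all 5415 genes tested, lay under 0.05. In bulk RNA, fewer cells that express a gene and less of its RNA per cell cannot be told apart.

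Values on all 10 arrays were present for 62 members. RSM7 (uS7m) had 8, without the arrays of MA-A3 with MA-A0 and of MA-A8 with MA-A1. MRPL31 (mL60), RSM26 (mS42) and MRP35 (bL35m) had none and were not tested, which left 63 members, 56 of them off chromosome XIII. Member probes lay in 15 of the 16 blocks of consecutive rows into which the table was divided. In the RefSeq gene table MRP4, MRPL19 and MRPL51 overlap another annotated gene, so that a double-stranded probe could read both.

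Among the 63 tested members, 9 differed among the 5 lines in limma's F test at an adjusted p under 0.05, against 19.3% of all genes. These were all 7 members on chromosome XIII, where 74.5% of genes passed, and 2 of the 56 elsewhere, RSM28 and MRP51, where 14.6% passed. At an unadjusted p under 0.05 the count off chromosome XIII was 16 of 56, beside 30.0% of genes there. The range between the highest and the lowest line had a median of 0.33 for members off chromosome XIII, the same as for all genes off that chromosome. On chromosome XIII the median range was 0.86 for the members and 0.67 for all 427 genes tested there. The members called were thus all of those on chromosome XIII and 3.57% of those elsewhere, a share that was not tested against its background.

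MA-A3 was the line in which members were called most often. There 8 members were higher than in the other lines, where 10.5% of all genes were, and none was lower, where 6.93% of all genes were. They were the 7 on chromosome XIII, where 82.0% of genes were called higher, and RSM28 on chromosome IV, 1 of the 56 members off chromosome XIII beside 4.37% of genes there. In MA-A1, 4 members were lower, against 1.55% of all genes. These were MRPL33, MRPL3 and MRPS17 on chromosome XIII, where 7.49% of genes were lower, and MRP51 on chromosome XVI, beside 1.04% of genes off chromosome XIII. Without the dye term of the model the MA-A1 count was 1, beside 0.166% of all genes. Without centring it was 0, beside 0.0554%, and the MA-A3 count was 1, beside 2.03%. No member was called in MA-A0, MA-A4 or MA-A8, in which 0.332%, 3.51% and 3.29% of all genes were called in either direction. At an unadjusted p under 0.05, 11, 2 and 10 of the 56 members off chromosome XIII lay apart in MA-A0, MA-A4 and MA-A8, beside 15.0%, 14.4% and 18.3% of genes off that chromosome.

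**Figure D1:**
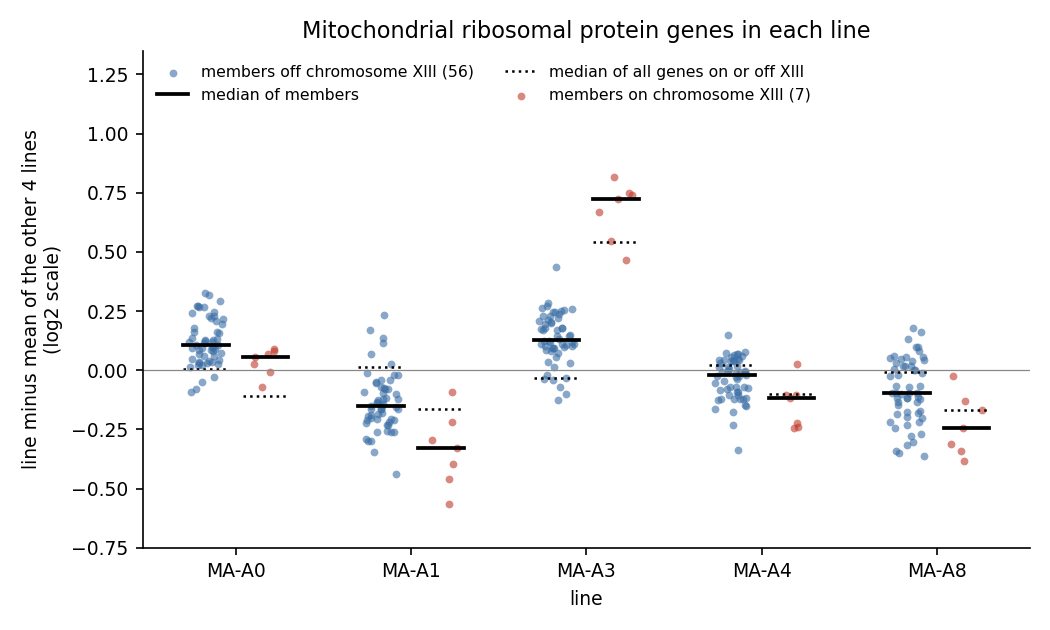
The value of each line (line minus the mean of the other 4, log2 scale) is plotted for the 56 tested members off chromosome XIII in blue and the 7 on it in red, with solid bars at the medians of the members and dotted bars at the medians of all genes off or on that chromosome. In MA-A3 the red points lie between 0.46 and 0.82, apart from the blue ones, whose highest is 0.43, and in MA-A1 most points of both colours lie below 0.

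The large-subunit members on chromosome XIII were higher in MA-A3, except that MRPL39 was level on the array with MA-A0 (0.03). For MRPL33 (uL30m), the log2 ratio of MA-A3 was 0.84 over MA-A0, 1.01 over MA-A1, 0.56 over MA-A4 and 0.86 over MA-A8. The line value was 0.82 ± 0.10 (SE of the fit over 10 arrays, adjusted p = 6.87e-05). The highest and lowest lines, MA-A3 and MA-A1, differed by 1.02 ± 0.12, or 2.03-fold if the logarithm is base 2.

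MRPL24 (bL28m) stood at 0.68, 0.73, 0.59 and 0.99 over MA-A0, MA-A1, MA-A4 and MA-A8, a line value of 0.75 ± 0.10 (adjusted p = 0.000106). MRPL3 (mL44), a protein of mitochondrial ribosomes alone, stood at 0.50, 0.94, 0.44 and 1.01 in the same order, a line value of 0.72 ± 0.10 (adjusted p = 0.000181). All 4 arrays were above 0 for both genes, and the lowest of them was 0.44. MRPL44 (mL53) had 0.32, 0.56, 0.57 and 0.74, with a line value of 0.55 ± 0.12 (adjusted p = 0.00379). MRPL39 (bL33m) had the smallest shift, 0.03, 0.67, 0.53 and 0.63, with a line value of 0.46 ± 0.11 (adjusted p = 0.00834). On the array with MA-A0, MRPL39 was level with the other line, while the remaining 3 arrays were clearly apart from 0.

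The MA-A3 call of MRPL39 was lost without the array of MA-A8 with MA-A3 (0.37, adjusted p = 0.0973) and without that of MA-A3 with MA-A1 (0.41, adjusted p = 0.0920). Those of MRPL33, MRPL24, MRPL3 and MRPL44 held without any one array. The F test of MRPL44 was lost without the arrays of MA-A8 with MA-A3, MA-A8 with MA-A1, MA-A3 with MA-A0 and MA-A3 with MA-A1, with adjusted p from 0.0505 to 0.1336. The F test of MRPL39 was lost without 6 of the 10 arrays, namely MA-A4 with MA-A3, MA-A1 with MA-A0, MA-A1 with MA-A4, MA-A8 with MA-A3, MA-A8 with MA-A1 and MA-A3 with MA-A1, with adjusted p from 0.0552 to 0.2104.

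The 2 small-subunit members on chromosome XIII were likewise higher in MA-A3. MRPS17 (uS17m) in MA-A3 had log2 ratios of 0.32, 1.19, 0.64 and 0.82 over MA-A0, MA-A1, MA-A4 and MA-A8, a line value of 0.74 ± 0.11 (adjusted p = 0.000301). MRPS8 (uS8m) had 0.41, 0.58, 0.69 and 0.99, a line value of 0.67 ± 0.10 (adjusted p = 0.000416). Both were above 0 on all 4 arrays, and both calls held without any one array. MRPS17 had the widest range of any member, 1.05 ± 0.14 between MA-A3 and MA-A1.

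The median of the 7 members in MA-A3 was 0.72, beside 0.54 for the other 420 tested genes of chromosome XIII. All 7 were above 0 on each of the 4 arrays, as were 86.2% of the genes of that chromosome, and 82.0% of them were called higher in MA-A3. Set against the 5 nearest tested genes on each side, 5 of the 7 members lay above the median of those neighbours in MA-A3, and the median difference over all 7 was 0.09. The neighbours of MRPL33, between NGL2 and DSS1, had a median of 0.61 and ran from 0.24 to 0.80, below MRPL33 itself. Those of MRPL39, between SPT5 and ERG6, had a median of 0.49 and ran from 0.06 to 1.03, which takes in MRPL39. Nearly all of the 10 neighbours of each member lay above 0 in MA-A3, 9 of 10 for MRPS17 and MRPS8 and 10 of 10 for the other 5. In MA-A0 all 7 members lay above the median of their neighbours, with a median difference of 0.16. In MA-A1, 5 of 7 lay below it and 2 above, with a median difference of -0.15. These differences were not tested.

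MRPL33, MRPS17 and MRPL3 were also called lower in MA-A1 against the mean of the other 4 lines, which takes in MA-A3. In limma's tests of MA-A1 with MA-A0, MA-A4 or MA-A8 alone, none of these genes was called (adjusted p from 0.0826 to 0.891). MRPL33 in MA-A1 stood at -0.38 over MA-A0, -1.01 over MA-A3, -0.20 over MA-A4 and -0.24 over MA-A8, and its line value was -0.46 ± 0.10 (adjusted p = 0.0236). For MRPS17 the same ratios were -0.63, -1.19, -0.24 and -0.20, with a line value of -0.57 ± 0.11 (adjusted p = 0.0198). The array with MA-A3 was the lowest of the 4 for both genes, and all 4 lay below 0. MRPL3 had -0.28, -0.94, -0.39 and 0.02, with a line value of -0.40 ± 0.10 (adjusted p = 0.0427), so that one of its arrays was level. The median of the 7 members in MA-A1 was -0.33, beside -0.16 for the other genes of chromosome XIII. Without the array of MA-A1 with MA-A0, MA-A1 with MA-A4, MA-A8 with MA-A1 or MA-A3 with MA-A1, no member was called lower in MA-A1. The share of all genes called lower was then 0% to 0.0553%. Without that of MA-A3 with MA-A0 the count was 2, beside 0.480% of all genes, and without that of MA-A0 with MA-A8 it was 10, beside 4.65%.

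**Figure D2:**
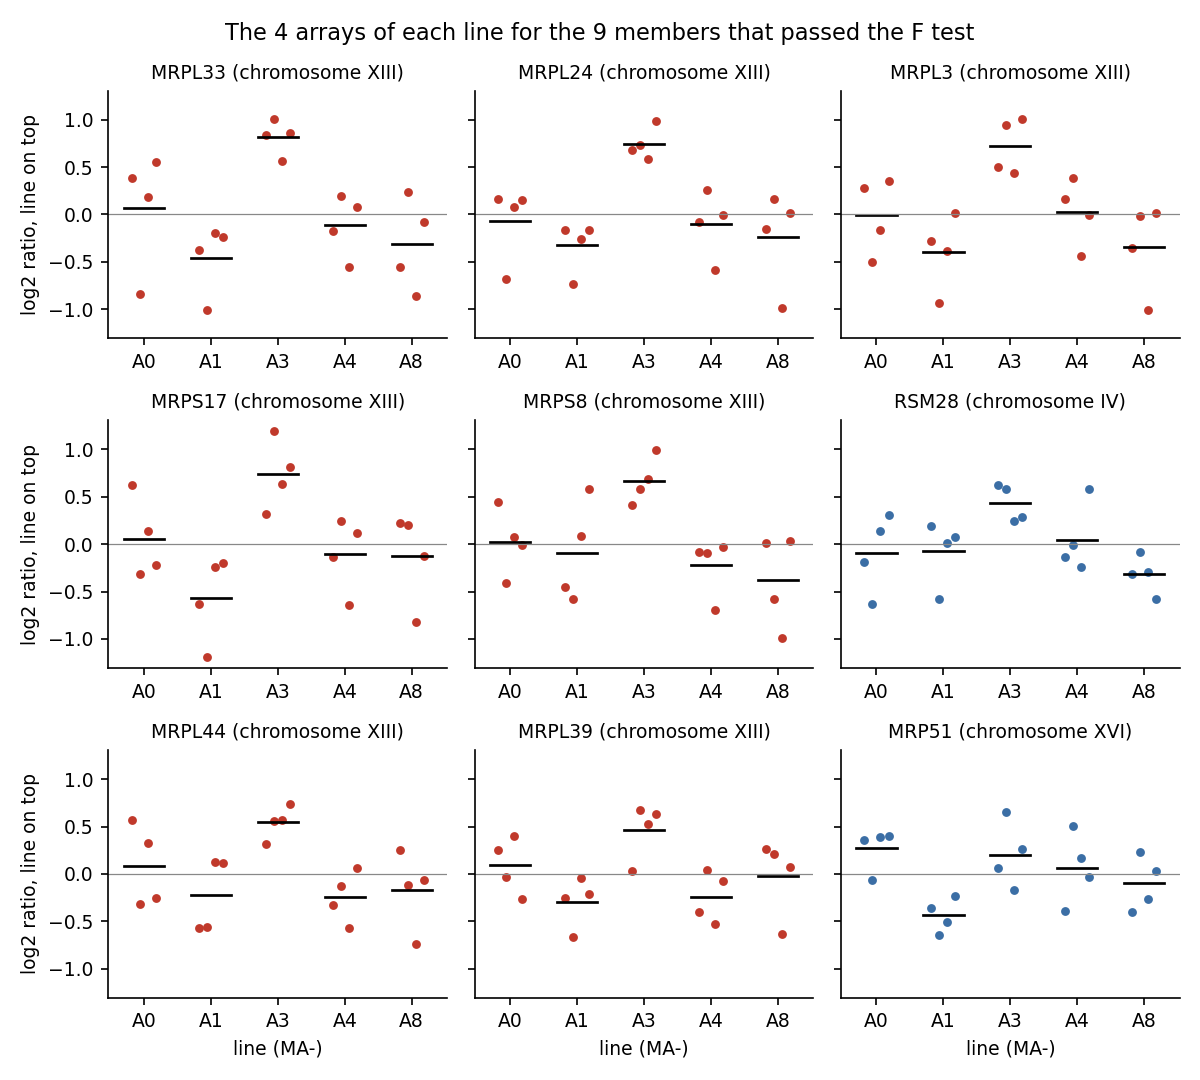
Log2 ratios on the 4 arrays of each line, with the named line on top, are plotted for the 9 members that passed the F test, chromosome XIII in red and other chromosomes in blue, with a bar at the mean of the 4. All 4 points of MA-A3 lie above 0 for the 7 red genes and RSM28, and all 4 points of MA-A1 lie below 0 for MRP51. Each ratio appears for both lines of its array, with the sign turned.

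Off chromosome XIII the 2 members that passed, where 14.6% of genes did, both encode small-subunit proteins. RSM28 (mS46) is a small-subunit protein specific to mitochondrial ribosomes and is known in yeast as a positive factor in mitochondrial translation. In MA-A3 its log2 ratios were 0.63 over MA-A0, 0.58 over MA-A1, 0.24 over MA-A4 and 0.29 over MA-A8. The line value of 0.43 ± 0.09 had an adjusted p of 0.00374, and the F test an adjusted p of 0.0182. All 4 arrays were above 0, with MA-A0 and MA-A1 giving the larger ratios. RSM28 was lowest in MA-A8, 0.60 ± 0.12 below MA-A3 (adjusted p = 0.0025). Its 10 nearest tested genes, between MZM1 and VPS3 and outward, had a median of 0.10 in MA-A3, and the highest was 0.23, below RSM28. The call in MA-A3 was lost without the array of MA-A4 with MA-A3 (0.38, adjusted p = 0.0534). The F test of RSM28 was lost without the arrays of MA-A8 with MA-A3 (adjusted p = 0.0617), MA-A3 with MA-A0 (0.0820) and MA-A3 with MA-A1 (0.0758), and when arrays were centred within probe blocks (0.0603).

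MRP51 (bS1m) is a small-subunit protein with genetic links in yeast to the mRNA leaders of mitochondrial COX2 and COX3. In MA-A1 its log2 ratios were -0.36 over MA-A0, -0.65 over MA-A3, -0.51 over MA-A4 and -0.23 over MA-A8. The line value was -0.44 ± 0.10 (adjusted p = 0.0381), and the F test had an adjusted p of 0.0344. All 4 arrays lay below 0. MRP51 was highest in MA-A0, 0.57 ± 0.13 above MA-A1 (adjusted p = 0.0479), the one member called between those lines, where 1.66% of all genes were called. Its 10 nearest tested genes had a median of -0.06 in MA-A1. The MA-A1 call was lost without any of the arrays of MA-A1 with MA-A0, MA-A1 with MA-A4, MA-A8 with MA-A1, MA-A3 with MA-A0 and MA-A3 with MA-A1, with values from -0.50 to -0.35 and adjusted p from 0.0657 to 0.2567. The F test of MRP51 was lost without the same arrays and without that of MA-A8 with MA-A3, with adjusted p from 0.0641 to 0.1735.

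The other members off chromosome XIII moved little one by one, yet most of them leaned to the same side in a given line. In MA-A0, 52 of 56 lay above 0, with a median of 0.11, where 50.8% of all genes off that chromosome lay above 0 with a median of 0.005. In MA-A3, 49 of 56 lay above 0, with a median of 0.13, beside 42.7% and a median of -0.03 for all genes off the chromosome. In MA-A1, 50 of 56 lay below 0, with a median of -0.15, where all genes off the chromosome had a median of 0.01. The medians in MA-A4 and MA-A8 were -0.02 and -0.10, with 36 of 56 below 0 in each. Over the members, the SD of a line value was 0.09 in MA-A4 and 0.14 in MA-A8, with the other lines between. These counts describe one set of arrays, and since each ratio enters 2 lines, the lines are not independent of one another.

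On all 4 arrays of MA-A1, 17 of the 56 members lay below 0, beside 9.08% of genes off chromosome XIII. In MA-A3, 16 of 56 lay above 0 on all 4 arrays, beside 9.88%. In MA-A8, 11 of 56 lay below 0 on all 4, beside 7.16%, and in MA-A0, 2 of 56 lay above 0 on all 4, beside 5.37%. The count in MA-A0 turned on its array with MA-A8: with that array turned, 20 of 56 lay above 0 on all 4, beside 14.9% of genes. No other array was turned, and the member median of this one was the least like the other arrays. The higher count follows in part from that choice and is not read as evidence of a lean. No member off chromosome XIII lay below 0 on all 4 arrays of MA-A3, beside 15.1%, or above 0 on all 4 of MA-A8, beside 7.52%.

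**Figure D3:**
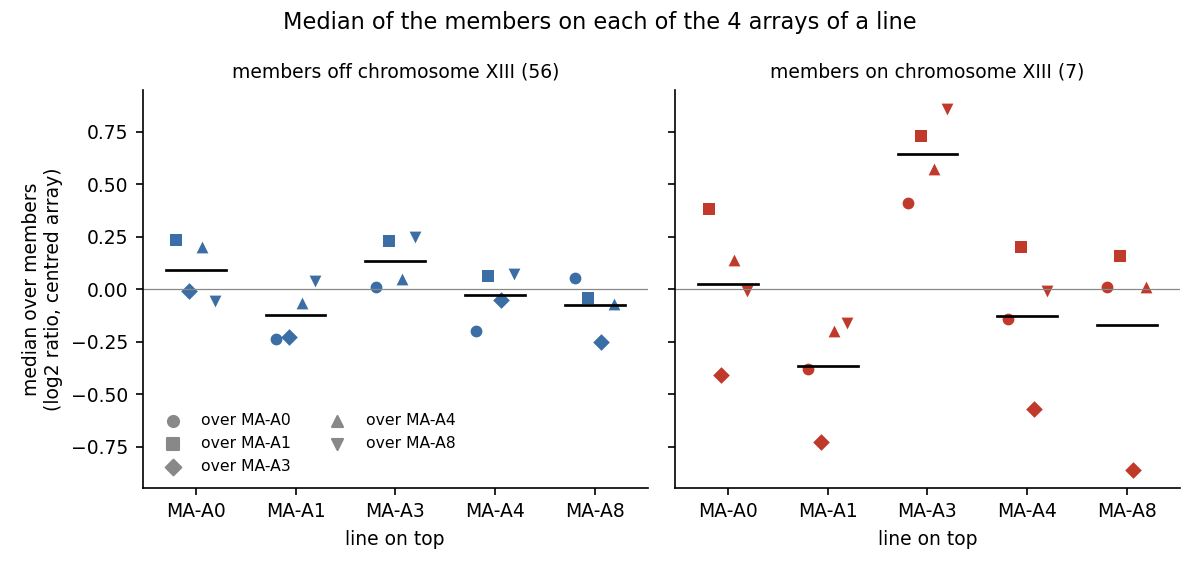
The median log2 ratio over the 56 members off chromosome XIII (left) and the 7 on it (right) is plotted for the 4 arrays of each line, with the marker giving the other line of the array and the bar the mean of the 4. Off chromosome XIII the 4 medians of MA-A3 run from 0.01 to 0.25, and in the right panel the lowest point of each other line is its array with MA-A3.

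Array by array, the median of the 56 members was 0.135 ± 0.123 in MA-A3 (SD over the 4 arrays, which ran from 0.01 to 0.25). It was -0.122 ± 0.134 in MA-A1, where it ran from -0.23 to 0.04, and 0.0925 ± 0.146 in MA-A0, where it ran from -0.06 to 0.24. The SD between arrays was close to the mean in MA-A3 and MA-A1 and larger than the mean in MA-A0, where 2 of the 4 medians lay below 0. Each of the 4 arrays holds a different other line, so this SD takes in differences among those lines and is not a spread of replicates. In MA-A0 the arrays with MA-A1 and MA-A4 gave 0.24 and 0.20, whereas that with MA-A8 gave -0.06 and that with MA-A3 gave -0.01. The array of MA-A0 with MA-A8 was the one least like the others: its median was -0.06, whereas the other 9 arrays together gave 0.28 for the same difference. Its medians by probe block also ranged the widest, over 0.73, where the other arrays ranged over 0.19 to 0.59. Without it, 16 of the 56 members passed the F test, beside 30.3% of all genes off chromosome XIII. Of all 63 members 14 were then higher in MA-A3, beside 12.6% of all genes, and 7 of these were off chromosome XIII, beside 6.37% of genes there. MA-A0, MA-A4 and MA-A8 together then had 10 calls over the 63 members, beside 17.1 calls per 100 genes. With its sign turned, 6 of the 56 members passed the F test, beside 18.5% of genes, and neither RSM28 nor MRP51 was among them. Whether this array runs against its title cannot be told from the labels.

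Chromosomes IX, XI, XII and XIII were left out together, since the medians of their other genes reached -0.24 in MA-A4 for IX, 0.14 and 0.28 in MA-A1 for XI and XII and 0.54 in MA-A3 for XIII. Away from these 4 44 of 47 members lay above 0 in MA-A0 and 41 in MA-A3, and 1 lay above 0 in MA-A1. Their medians of 0.12, 0.14 and -0.17 in these lines were close to those of all 56. Against their 10 nearest tested neighbours, 52 of 56 members were higher in MA-A0, by a median of 0.10, and 50 were higher in MA-A3, by 0.17. In MA-A1, 52 of 56 were lower than their neighbours, by a median of 0.15 in size. In MA-A4 and MA-A8 the members lay below their neighbours in 36 and 35 of 56 cases.

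**Figure D4:**
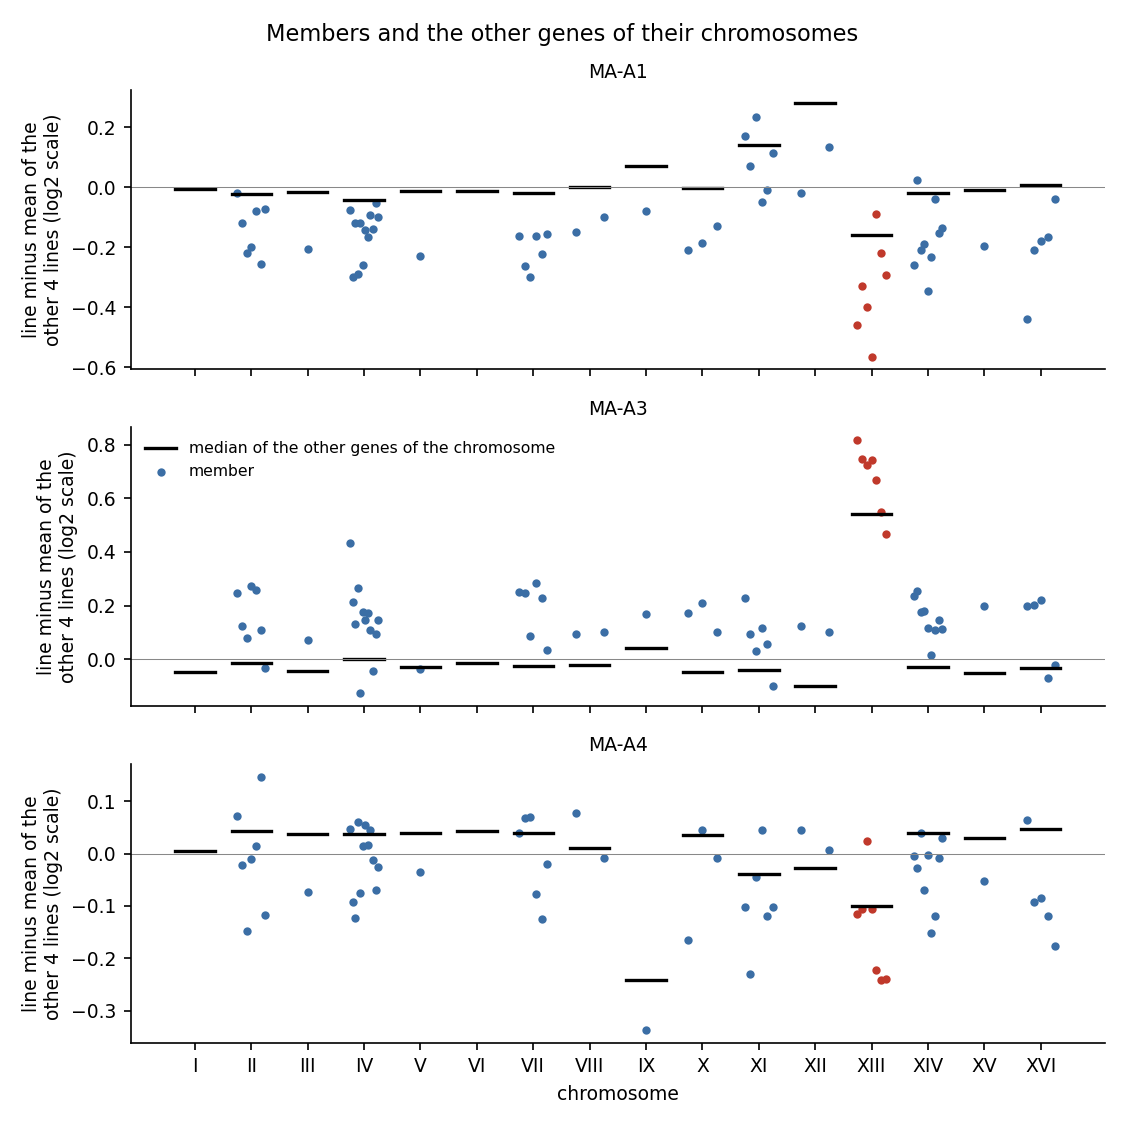
Line values (log2 scale) of single members are plotted by chromosome for MA-A1, MA-A3 and MA-A4, with a bar at the median of the other genes of the chromosome. In MA-A3 the bar of chromosome XIII is at 0.54, in MA-A1 those of XII and XI are at 0.28 and 0.14, and in MA-A4 that of IX is at -0.24, with its member RSM25 at -0.34.

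Members on chromosome XI departed from the rest in MA-A1. The other genes of that chromosome had a median of 0.14 there, and 4 of its 6 tested members lay above 0, with a median of 0.09. Of the 50 members off chromosomes XI and XIII, 2 lay above 0, MRPL4 on chromosome XII and MRPL10 on chromosome XIV. MRPL20 (mL58) was the highest member of MA-A1, at 0.23 ± 0.13 (adjusted p = 0.325). Its ratios were -0.19 over MA-A0, 0.02 over MA-A3, 0.13 over MA-A4 and 0.98 over MA-A8, so that this value rested on a single array. MRP49 (mL61) was the next, at 0.17 ± 0.10, with -0.16, -0.07, 0.28 and 0.63. Neither gene passed the test, and the arrays of both lay on either side of 0. MRPL13 (mL50), also on chromosome XI, had one of the smallest ranges of all members, 0.17 ± 0.16. MRPL4 (uL29m), which lies beside the exit of the peptide tunnel, had 0.14 ± 0.10 in MA-A1, below the median of 0.28 for the other genes of chromosome XII.

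RSM25 (mS23) was the only tested member on chromosome IX, whose other genes had a median of -0.24 in MA-A4. It was the lowest of all members in MA-A4, with ratios of -0.24 over MA-A0, -0.39 over MA-A1, -0.45 over MA-A3 and -0.27 over MA-A8. The line value of -0.34 ± 0.10 did not pass (adjusted p = 0.0797). Its 10 nearest tested neighbours had a median of -0.27 in that line, and none of them was above 0. Between MA-A3 and MA-A4, RSM25 differed by 0.41 ± 0.12 (adjusted p = 0.0461), where 11.6% of all genes were called. RSM22 on chromosome XI was the next lowest member off chromosome XIII in MA-A4, at -0.23 ± 0.10, with all 4 arrays below 0.

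By subunit, the large-subunit members off chromosome XIII had medians of 0.10 in MA-A0, -0.13 in MA-A1, 0.12 in MA-A3 and -0.12 in MA-A8. The small-subunit members had 0.13, -0.21, 0.17 and -0.02 in the same lines. All 24 small-subunit members lay below 0 in MA-A1, as did 26 of 31 of the large subunit. In MA-A8, 8 of 31 large-subunit and 11 of 24 small-subunit members lay above 0. Off chromosome XIII, 24 members have relatives in all ribosomes, 11 have relatives in bacteria and 20 belong to mitochondrial ribosomes alone. Of these, 0, 1 and 1 passed the F test, beside 14.6% of all genes off that chromosome. These 3 classes had medians of 0.15, 0.11 and 0.15 in MA-A3 and of -0.17, -0.19 and -0.10 in MA-A1, and no difference between them was tested.

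Among the 2 highest and 2 lowest members of each line off chromosome XIII, only RSM28 in MA-A3 and MRP51 in MA-A1 were called. In MA-A0, MRPS28 (uS15m) was the highest at 0.33 ± 0.10 (adjusted p = 0.201), with ratios of 0.15 over MA-A1, 0.11 over MA-A3, 0.50 over MA-A4 and 0.55 over MA-A8. It was above 0 on each array. MRPL28 (mL40) followed at 0.29 ± 0.10 with 0.30, 0.35, 0.54 and -0.02 in the same order, level on the array with MA-A8. RSM7, measured on 3 of the 4 arrays of MA-A0, had 0.32 ± 0.13 from the arrays that were left. RSM28 and MRP20 (uL23m), a protein of the tunnel exit, were the lowest in MA-A0, at -0.09 and -0.08.

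In MA-A1, MRPS18 (uS11m) was the lowest after MRP51 off chromosome XIII, at -0.35 ± 0.11 (adjusted p = 0.0922). Its ratios were -0.59, -0.23, -0.23 and -0.33 over MA-A0, MA-A3, MA-A4 and MA-A8, all below 0. In MA-A3, MRPS35 (mS45) was the highest after RSM28 off chromosome XIII, at 0.28 ± 0.10 (adjusted p = 0.0746), with 0.19, 0.41, 0.08 and 0.46 over MA-A0, MA-A1, MA-A4 and MA-A8, all above 0. At the other end of MA-A3 were MRPL28 at -0.13 and MRPL13 at -0.10. In MA-A4 the highest were MRP21 (bS21m) at 0.15 and MRPL6 (uL6m) at 0.08. None of these members was called.

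In MA-A8, MRPL37 (mL54) was the lowest member off chromosome XIII, at -0.36 ± 0.10 (adjusted p = 0.0743), with ratios of -0.45, -0.42, -0.23 and -0.35 over MA-A0, MA-A1, MA-A3 and MA-A4. MRPL10 (uL15m) followed at -0.35 ± 0.10 (adjusted p = 0.0861), with 0.04, -0.52, -0.64 and -0.27. All 4 arrays were below 0 for MRPL37 and 3 of 4 for MRPL10. The highest in MA-A8 were MRPS16 (bS16m) at 0.18 and RSM19 (uS19m) at 0.16. Both had arrays on either side of 0. The smallest ranges among the lines were those of MRP4 (uS2m) at 0.16, MRPL13, MRPL35 (mL38) and MRP17 (bS6m) at 0.17 each and MRPL49 (bL21m) at 0.19, each with an SE of 0.12 to 0.16.

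Between pairs of lines, most calls of members involved MA-A3. Of the 63 members, 13 were called between MA-A1 and MA-A3, beside 15.5% of all genes, and 11 between MA-A3 and MA-A8, beside 18.6%. Between MA-A3 and MA-A4 there were 8, beside 11.6%, and between MA-A0 and MA-A3 there were 6, beside 12.0%. In each of these pairs every member called was higher in MA-A3. Off chromosome XIII the count was 6 of 56 between MA-A1 and MA-A3, beside 10.5% of genes there, and 5 of 56 between MA-A3 and MA-A8, beside 13.9%. Apart from RSM28 and MRP51, the members off chromosome XIII called above MA-A1 were RSM10 (uS10m, 0.41 ± 0.11), MRPL22 (uL22m, 0.40 ± 0.13), MRPL9 (uL3m, 0.41 ± 0.12) and RSM24 (mS35, 0.44 ± 0.12), with adjusted p from 0.0238 to 0.0493. Called above MA-A8, apart from RSM28, were MRP49 (0.46 ± 0.13), MRP13 (mS44, 0.39 ± 0.11), MRPL37 (0.49 ± 0.13) and MRPL10 (0.48 ± 0.13), with adjusted p from 0.0179 to 0.0260. No member was called between MA-A0 and MA-A4 (1.75% of all genes), MA-A0 and MA-A8 (0.388%), MA-A1 and MA-A4 (2.27%), MA-A1 and MA-A8 (0.536%) or MA-A4 and MA-A8 (2.12%). These pairs share lines and arrays.

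Across the 10 arrays the members off chromosome XIII tended to vary together. The median Pearson correlation between 2 such members was 0.45 over the 1485 pairs of the 55 measured on every array. It was 0.86 among the 7 on chromosome XIII and 0.01 among all genes off that chromosome. No such value was computed for all genes on chromosome XIII, of which 86.2% lay above 0 on all 4 arrays of MA-A3. The 0.86 is therefore not read as particular to the members. The correlation of a member with the median of the other members was highest for MRPL49 and MRPS9 (uS9m), at 0.93 for both, and it was above 0 for 55 of 56, with a median of 0.64. MRPL4 was the exception, at -0.15. The arrays share lines and dyes, so that these correlations are a description and have no p. The same median was 0.59 for cytosolic ribosomal protein genes and 0.67 for nuclear genes of the respiratory chain and ATP synthase; both lists also varied together.

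The medians of the respiratory chain genes had the same sign as those of the members in MA-A0, MA-A1, MA-A3 and MA-A8. Off chromosome XIII the 34 respiratory chain and ATP synthase genes had medians of 0.24 in MA-A0, -0.30 in MA-A1, 0.17 in MA-A3 and -0.14 in MA-A8. Of the 34, 11 passed the F test, beside 14.6% of all genes off that chromosome. Medians of the 34 on single arrays ran from -0.54 to -0.07 in MA-A1 and from -0.12 to 0.45 in MA-A3. The 117 cytosolic ribosomal protein genes off chromosome XIII had medians of 0.17 in MA-A1 and -0.16 in MA-A3, and 7 of the 117 passed, beside the same 14.6%. On single arrays their medians ran from -0.16 to 0.47 in MA-A1 and from -0.75 to 0.44 in MA-A3, and so changed sign between arrays. The differences between the lists were not tested.

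Ribosomal proteins of the mitochondrion that carry other names showed the lean of the members. All 13 lay below 0 in MA-A1, with a median of -0.15, and all 13 above 0 in MA-A3, with a median of 0.18. By the F test, 2 of the 13 passed, beside 19.3% of all genes. YML6 (chromosome XIII), the uL4 protein of the mitochondrial ribosome, was higher in MA-A3 at 0.78 ± 0.12 (F test adjusted p = 0.00660). SWS2, the uS13 protein, had its highest value of 0.25 ± 0.09 in MA-A3 and its lowest of -0.30 ± 0.09 in MA-A8 (F test adjusted p = 0.0192). MNP1, the bL12 protein, had 0.33 ± 0.12 in MA-A3 and -0.32 ± 0.12 in MA-A1 and did not pass the F test (adjusted p = 0.0939).

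Other genes serve the mitochondrial ribosome without being part of it. Of the 11 tested translation factors, all off chromosome XIII, 1 passed the F test, beside 14.6% of genes there. It was RSO55 on chromosome XII (adjusted p = 0.0476), which relates to release factors and was highest in MA-A1 at 0.34 ± 0.12. MEF2, whose human relative acts in ribosome recycling, and GUF1, an elongation factor 4 homologue, did not pass. This list had medians of -0.18 in MA-A0 and 0.035 in MA-A1, each on the other side of 0 from the members. None of the 12 mitochondrial aminoacyl-tRNA synthetases, all off chromosome XIII, passed limma's F test, beside 14.6% of genes there. At an unadjusted p under 0.05 none passed either, beside 30.0%. The smallest adjusted p values were those of SLM5, NAM2 and ISM1, from 0.176 to 0.280.

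Of the 18 tested activators of translation of single mitochondrial mRNAs, 7 passed, beside 19.3% of all genes, and 6 were higher in MA-A3, beside 10.5%. Of the 7, 4 lie on chromosome XIII, where 74.5% of genes passed and 82.0% were higher in MA-A3. PET111, the activator of COX2 mRNA translation, had 0.81 ± 0.10 in MA-A3, AEP2, which acts on the OLI1 mRNA, had 0.80 ± 0.10, and SOV1 had 0.60 ± 0.12. All 3 lie on chromosome XIII. Off that chromosome 3 of 14 passed, beside 14.6% of genes there. Among 11 genes of ribosome assembly, rRNA synthesis and rRNA modification 3 passed, all on chromosome XIII, where 74.5% of genes passed. YTA12, a subunit of the protease that matures a large-subunit protein, had 0.61 ± 0.10 in MA-A3. MTF1, the mitochondrial RNA polymerase specificity factor, had 0.68 ± 0.11 there, and MTG1, a GTPase of ribosome assembly, had 0.55 ± 0.10. Of the 8 assembly genes off chromosome XIII, 0 passed, beside 14.6%. All 8 lay below 0 in MA-A0 (median -0.08) and 7 lay above 0 in MA-A1 (median 0.05), in both lines opposite to the lean of the members. In MA-A3, 7 of the 8 lay above 0, and 2 were called higher, beside 4.37% of genes off that chromosome. In MA-A1, 1 was called higher, beside 2.81%.

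Of 9 genes for membrane insertion and processing of mitochondrial products, 2 passed, beside 19.3% of all genes. SOM1, a subunit of the inner membrane peptidase complex, was lower in MA-A4 at -0.65 ± 0.12 and in MA-A3 at -0.52 ± 0.12, and its value in MA-A0 was 0.57 ± 0.12, for a range of 0.97 ± 0.15. IMP1 and IMP2, the catalytic subunits of the same peptidase, both on chromosome XIII, had 0.51 ± 0.10 and 0.36 ± 0.10 in MA-A3. Both were called higher in MA-A3, where SOM1 on chromosome V was called lower, and IMP2 did not pass the F test (adjusted p = 0.0723).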

How the data were processed

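Per the labels, total RNA of 5 lines was labelled with a Genisphere dendrimer kit and each pair was hybridised once on a two-colour array. The authors deposited 1 log ratio per probe row and array, read here as log2 of Cy5 over Cy3; base, direction, scanner, background correction and normalization were not given in the sources used here. Rows were named from the platform annotation, with symbols, chromosomes and gene order from the RefSeq R64 table. Rows of a gene were averaged, arrays were centred on the median over genes, and the 5415 genes measured on 8 or more arrays were fitted with line and dye terms using limma 3.58.1 in R 4.3.3 (5 residual and 8.89 prior degrees of freedom). p-values were adjusted by Benjamini-Hochberg over all genes, with 0.05 as threshold.

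Members and comparison lists were chosen with earlier results of these data known. Genes named singly were the members that passed the F test, those on chromosome XIII, those without values, the 2 highest and lowest per line and the 5 with the smallest range off that chromosome, both among members measured on all 10 arrays, and up to 3 genes per related list with the smallest F-test p. MRPL4, MRPL10, RSM7, MRPS9 and the members called in single pairs were named after their values were seen. The number of arrays limits the precision.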

Additional observations from a re-analysis of the deposited data

Results flagged for a closer look

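Of 19 medians and named values checked over the 4 arrays of a line, 1 had an array far from the others by Dixon's criterion. The 19 share arrays and lines, so that this count cannot be set against a chance rate. The median of the 7 members on chromosome XIII in MA-A8 was -0.86 on the array with MA-A3, where the other 3 arrays of MA-A8 gave 0.01 to 0.16. That array is the one shared with MA-A3, the line in which these members were higher. The array with MA-A3 was also the farthest for these members in MA-A0, MA-A1 and MA-A4, without reaching the criterion.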

How the results depend on the processing

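No called value of a member reversed its sign under any alternative, and of the medians only that of MA-A4 off chromosome XIII, which lay near 0, crossed it when 1 array was left out. Members off chromosome XIII that passed the F test numbered 2 in the reported analysis, 0 without the dye term, without centring and with an unmoderated test, 9 with centring within probe blocks and 6 with the sign of the MA-A0 with MA-A8 array turned. They numbered 0 to 16 when 1 array was left out, the lowest without MA-A8 with MA-A3, MA-A3 with MA-A0 or MA-A3 with MA-A1 and the highest without MA-A0 with MA-A8. All genes off chromosome XIII moved likewise, from 14.6% to 7.04% without the dye term, 2.15% without centring, 0.0401% unmoderated, 19.7% with probe blocks and 18.5% with the turned array. With 1 array left out their share ran from 8.08% to 30.3%. The members passing were not the same: with probe blocks MRP51 was shared with the reported analysis, and with the turned array none was. On chromosome XIII the 7 became 5 without the dye term, where MRPL44 and MRPL39 were lost (adjusted p = 0.0587 and 0.0638), 1 without centring and 0 unmoderated, and 5 to 7 with 1 array left out. Of all genes there 74.5% became 52.9%, 8.90% and 0.234%, and 44.5% to 89.0% with 1 array left out. Members higher in MA-A3 went from 8 to 1 without centring, while the share of all genes went from 10.5% to 2.03%. With 1 array left out they numbered 7 to 14, beside 7.35% to 12.6% of all genes. Members lower in MA-A1 went from 4 to 1 without the dye term, 2 with the turned array and 0 without centring or moderation. With 1 array left out they numbered 0 to 10, beside 0% to 4.65% of all genes. The share of all genes lower in MA-A1 went from 1.55% to 0.166% without the dye term and 0.942% with the turned array. It was 0.0554% without centring and 0% without moderation. Calls in MA-A0, MA-A4 and MA-A8 went from 0 to 3 with probe blocks, 6 with the turned array and 1 with a robust prior, and from 0 to 10 with 1 array left out. Calls over the 10 pairs went from 39 to 2 without centring and 20 unmoderated, and from 20 to 71 with 1 array left out. The matching shares of all genes for the pairs are not given here, and these changes are not read as particular to the members. Medians of members off chromosome XIII moved without centring, in MA-A0 from 0.11 to 0.40 and in MA-A1 from -0.15 to -0.29. With 1 array left out they ran from 0.05 to 0.19 in MA-A0, -0.19 to -0.12 in MA-A1, 0.12 to 0.16 in MA-A3, -0.07 to 0.01 in MA-A4 and -0.15 to -0.04 in MA-A8, and that on chromosome XIII in MA-A3 from 0.64 to 0.79. RSM28 lost its F test without the dye term (adjusted p = 0.129), with probe blocks (0.0603) and with the turned array (0.0672), and MRP51 lost its F test without the dye term (0.0780) and with the turned array (0.126). The causes were not tested. Centring on genes off chromosome XIII, other minimum numbers of arrays, and centring on all probe rows, which was chosen after seeing the data, changed no call of the 9 members. No pairing beyond that of the 2 lines on each array could be used, because each pair of lines was hybridised once and the labels give no replicate numbers.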
